A study of Mus musculus with 27 samples.

Results

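Collagen genes were examined in the left lung lobe of mice, in RNA sequenced from 27 animals with 1 library per mouse. They were all gene symbols of the linear RNA table made of Col, a type number, the letter a and a chain number. The table held 44 such genes of 21742 genes in all, and 35 of them reached at least 1 TPM (a length-scaled share of the transcripts of a library) in at least 5 of the 27 libraries, as did 17437 genes of the whole table. Of these 35, 9 of 11 were fibrillar, 7 of 8 belonged to basement membranes and 19 of 25 were of other classes. The 9 that did not pass were Col2a1, Col11a1, Col4a6, Col9a1, Col9a2, Col19a1, Col22a1, Col25a1 and Col26a1. Just outside the filter were Col2a1, the main fibrillar chain of cartilage, and Col4a6, each at 1 TPM or more in 4 libraries, with maxima of 1.76 TPM and 1.04 TPM. All 4 libraries in which Col4a6 reached 1 TPM were Saline libraries. Just inside were Col6a4 with 13 such libraries, Col24a1 with 16 and Col6a5 with 17, and none of the 16 for Col24a1 was a Saline library.

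All mice were BALB/c AnNHsd animals aged 87 days, in a protocol of 35 days. Dex_CDGHDM mice (n = 6) were sensitized with house dust mite extract and cyclic di-GMP, a bacterial second messenger used as a mucosal adjuvant, and were given the glucocorticoid dexamethasone intraperitoneally at 3 mg/kg on days 11, 18 and 25. AM155 mice (n = 6) were given an antisense oligonucleotide against miR-155 in lipid nanoparticles, intravenously at 2 mg/kg on the same days; their labels do not say in words that they were sensitized too. CDG_HDM mice (n = 10) were sensitized and received neither agent, and Saline mice (n = 5) were unsensitized. No group is labelled as given empty nanoparticles or the vehicle of a treatment alone, and Saline is the name of the unsensitized group in the sample titles. The lobe was taken whole, so fewer cells of a type and less RNA per cell cannot be told apart in any result on a gene.

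Collagens are triple helices of protein chains, and the chains of a type are often the products of different genes. Fibrillar collagens, types I, III and V among them, are secreted mainly by fibroblasts, trimmed outside the cell and packed into the fibrils that give lung its tensile strength. Type IV collagen forms the sheet-like network of basement membranes. Its Col4a1 and Col4a2 chains occur in nearly all of these, and its Col4a3, Col4a4 and Col4a5 chains in a few, the alveolar basement membrane included. The remaining classes bind to fibrils, span cell membranes, anchor epithelia or form finer networks.

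Since TPM values carry no counts of reads, library depth is not known. The linear table summed to 629353 to 767968 TPM in Dex_CDGHDM libraries, 542264 to 770987 in AM155, 628177 to 798457 in CDG_HDM and 806446 to 858506 in Saline; the rest of each library lay in circular RNA or outside the tables. This total was lower in the 3 treated or sensitized groups. The median log2 change of all genes between CDG_HDM and Saline was -0.10, and it was 0.01, -0.01 and 0.04 after median-of-ratios, quantile and common-sum scaling. Median-of-ratios and quantile scaling bring this median near 0 by construction, and what lowered it was not tested. Saline 4 and AM155 6 lay apart from the other libraries on the second principal component. AM155 5, AM155 6 and Dex_CDGHDM 4 had circular tables summing to 219215, 229968 and 240756 TPM, where the highest of the other libraries had 109468. Some results that rest on these libraries are given with and without them.

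A few chains made up most of the collagen RNA, and their order was nearly the same in each group. Col4a1 averaged 500.0 ± 62.5 TPM in Dex_CDGHDM, 439.8 ± 94.5 in AM155, 459.9 ± 95.7 in CDG_HDM and 475 ± 51.4 in Saline (SD). Col1a2 and Col3a1 followed, except in AM155, where the mean of Col1a2 was above that of Col4a1 by less than their SDs. Col4a1, Col1a2 and Col3a1 together held 59.4% of the mean collagen TPM in Dex_CDGHDM, 59.4% in AM155, 58.9% in CDG_HDM and 52.3% in Saline. Col4a2 and Col6a1 came next, in this order in every group. In ranks 6 to 10, Col6a2, Col6a3, Col1a1, Col4a3, Col5a2 and Col13a1 lay close together, and their order differed between groups. Although type I collagen is usually built with more Col1a1 than Col1a2 chains, the TPM of Col1a2 was above that of Col1a1 in each of the 27 libraries, and the mean ratio of Col1a2 to Col1a1 was 8.49 ± 0.506 in Dex_CDGHDM, 7.26 ± 0.299 in AM155, 7.91 ± 0.481 in CDG_HDM and 6.99 ± 1.65 in Saline. How reads of the 2 genes were assigned was not tested.

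The first comparison asked what sensitization changed, CDG_HDM against Saline. Among the fibrillar genes, 4 passed as higher in the lungs of sensitized mice and none as lower, while 5 did not pass the test. They were Col1a2 and Col3a1, the most abundant fibrillar chains, Col5a2, a chain of the type V collagen that sits in the core of fibrils, and Col24a1, a fibrillar chain best known from bone. Col24a1 reached 1 TPM in 7 of 10 CDG_HDM and 0 of 5 Saline libraries, so it came past the filter only through groups in which it was higher, and its place in this count is no support for a direction of the class. Col2a1 and Col11a1, the fibrillar genes left out by the filter, are not in this count. Their means were lower in CDG_HDM (0.590 and 0.657 TPM) than in Saline (1.08 and 0.902 TPM). Passing means a Benjamini-Hochberg adjusted p under 0.05 over all 17437 genes in a limma model of log2(TPM + 1), and log2 changes below are on that scale, which understates the change of genes with few TPM. Among all genes tested, 9.35% rose by this rule. The log2 changes of the 4 lay between 0.39 and 0.53.

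Col1a2, on chromosome 6 (4504814 to 4541544 of GRCm38, forward strand), had a lowest, median and highest value of 324, 427 and 613 TPM in CDG_HDM, against 296, 304, 324, 334 and 349.8 TPM in the 5 Saline libraries. All 10 CDG_HDM libraries lay above the Saline mean, though the ranges of the groups overlapped (log2 change 0.39 ± 0.139 SE, adjusted p = 0.030). Col3a1, on chromosome 1 (45311538 to 45349706, forward strand), had 211, 298 and 482 TPM in CDG_HDM as lowest, median and highest, against 197, 203, 206, 233 and 236 TPM in Saline. Its groups overlapped, with 8 of 10 CDG_HDM libraries above the Saline mean (0.46 ± 0.172, adjusted p = 0.0381). Col5a2 lies beside Col3a1 on the other strand, 24614 bases away, the genes ending toward each other. It had 32.4, 46.0 and 66.6 TPM in CDG_HDM, against 30.2, 33.2, 33.7, 34.2 and 37.0 TPM in Saline (0.39 ± 0.147, adjusted p = 0.0435). Col24a1 was a gene of few TPM, with 0.647, 1.29 and 3.30 in CDG_HDM, against 0.317, 0.542, 0.639, 0.890 and 0.933 in Saline (0.53 ± 0.15, adjusted p = 0.0068). The ranges overlapped.

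The other chain of type I collagen did not pass. Col1a1 (chromosome 11, 94936224 to 94953042, forward strand) had 41.4, 52.9 and 73.1 TPM in CDG_HDM as lowest, median and highest, against 39.2, 39.5, 44.7, 45.9 and 74.5 TPM in Saline. The Saline value of 74.5 came from Saline 4 and was above every CDG_HDM library. The log2 change was 0.17 ± 0.156 with adjusted p = 0.431, and 0.33 with adjusted p = 0.0796 without Saline 4. Col5a1, the partner of Col5a2 in type V collagen, had a log2 change of -0.18 ± 0.141 (adjusted p = 0.357), and Col5a3, a further type V chain, of -0.33 ± 0.138 (adjusted p = 0.0705). Col27a1 (-0.20) and Col11a2 (-0.07), minor fibrillar chains best known from cartilage, did not pass either.

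The calls on abundant fibrillar chains lay near the threshold, and leaving out 1 library often ended them. Without any 1 of 9 libraries (Saline 2, 5, 8 or 10, or CDG_HDM 5, 7, 9, 10 or 13) Col3a1 no longer passed, with adjusted p of 0.050 to 0.0884; Col1a2 no longer passed without Saline 2, 4 or 8 or CDG_HDM 10 (0.0502 to 0.0775), and Col5a2 without any of 11 libraries (0.0535 to 0.111), while their log2 changes stayed between 0.32 and 0.52. Under the 3 other scalings Col1a2, Col3a1, Col5a2 and Col24a1 still passed, with log2 changes of 0.47 to 0.63. With no filter on low values, Col3a1 (adjusted p = 0.0539) and Col5a2 (0.0582) did not pass. With the replicate number as a block in the model, Col1a2, Col3a1 and Col5a2 all lost their calls (limma adjusted p = 0.101, 0.154 and 0.237). Col5a2 also did not pass without Saline 4 and AM155 6 together (0.0552).

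**Figure D1:**
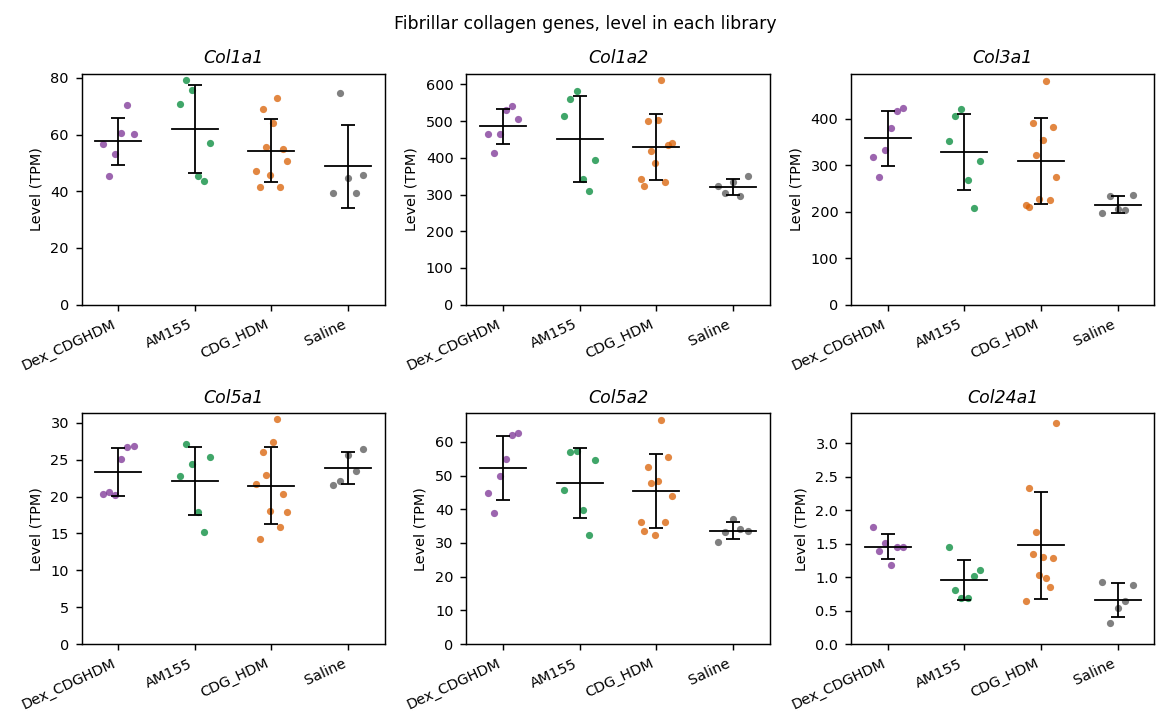
Level in TPM (vertical axis, linear, from 0) of 6 fibrillar collagen genes in each library of the 4 groups; points are libraries (mice), the horizontal bar is the mean and the error bar the SD. For Col1a2, Col3a1 and Col5a2 the Saline points lie at the bottom of the range with little spread, CDG_HDM points spread upward from there, and for Col1a1 the Saline 4 library stands at 74.5 TPM above the other Saline libraries.

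Of the 7 basement membrane genes that passed the filter, 2 fell, Col4a3 and Col4a4, none rose and 5 did not pass. This share is near that of all genes, of which 22.8% fell. Both are chains of the restricted type IV trimer with Col4a5, found in the basement membranes of alveolus and kidney glomerulus. Col4a4, on chromosome 1 (82448423 to 82586849, reverse strand), had 18.7, 23.3 and 27.9 TPM in CDG_HDM as lowest, median and highest, against 32.0, 34.5, 36.9, 37.0 and 40.7 TPM in Saline. The groups did not overlap (log2 change -0.63 ± 0.110, adjusted p = 4.8e-05). Col4a3, on chromosome 1 (82586921 to 82722059, forward strand), had 32.6, 46.7 and 56.9 TPM in CDG_HDM, against 56.8, 60.5, 62.8, 63.5 and 69.5 TPM in Saline. The 2 ranges touched only at their ends, and all 10 CDG_HDM libraries lay below the Saline mean (-0.46 ± 0.132, adjusted p = 0.00803).

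Col4a5, on the X chromosome (141475385 to 141689234, forward strand), completes that trimer. It had 13.8, 20.8 and 26.6 TPM in CDG_HDM, against 24.6, 25.2, 26.2, 28.1 and 28.8 TPM in Saline, and narrowly missed the threshold (-0.37 ± 0.147, adjusted p = 0.0526), with all 10 CDG_HDM libraries below the Saline mean. The widespread chains gave no call. Col4a1 (chromosome 8, 11198423 to 11312826, reverse strand) had 334, 458 and 597 TPM in CDG_HDM, against 395, 458, 488, 514 and 521 TPM in Saline, ranges of which the first spans the second (-0.07 ± 0.137, adjusted p = 0.736). Its sign was positive under median-of-ratios (0.05) and common-sum scaling (0.10). Col4a2, its partner, had a log2 change of -0.24 ± 0.141 (adjusted p = 0.203). Col15a1 (-0.24) and Col18a1 (-0.10), the collagen-proteoglycans of vascular and epithelial basement membranes, the second of them the source of endostatin, did not pass.

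**Figure D2:**
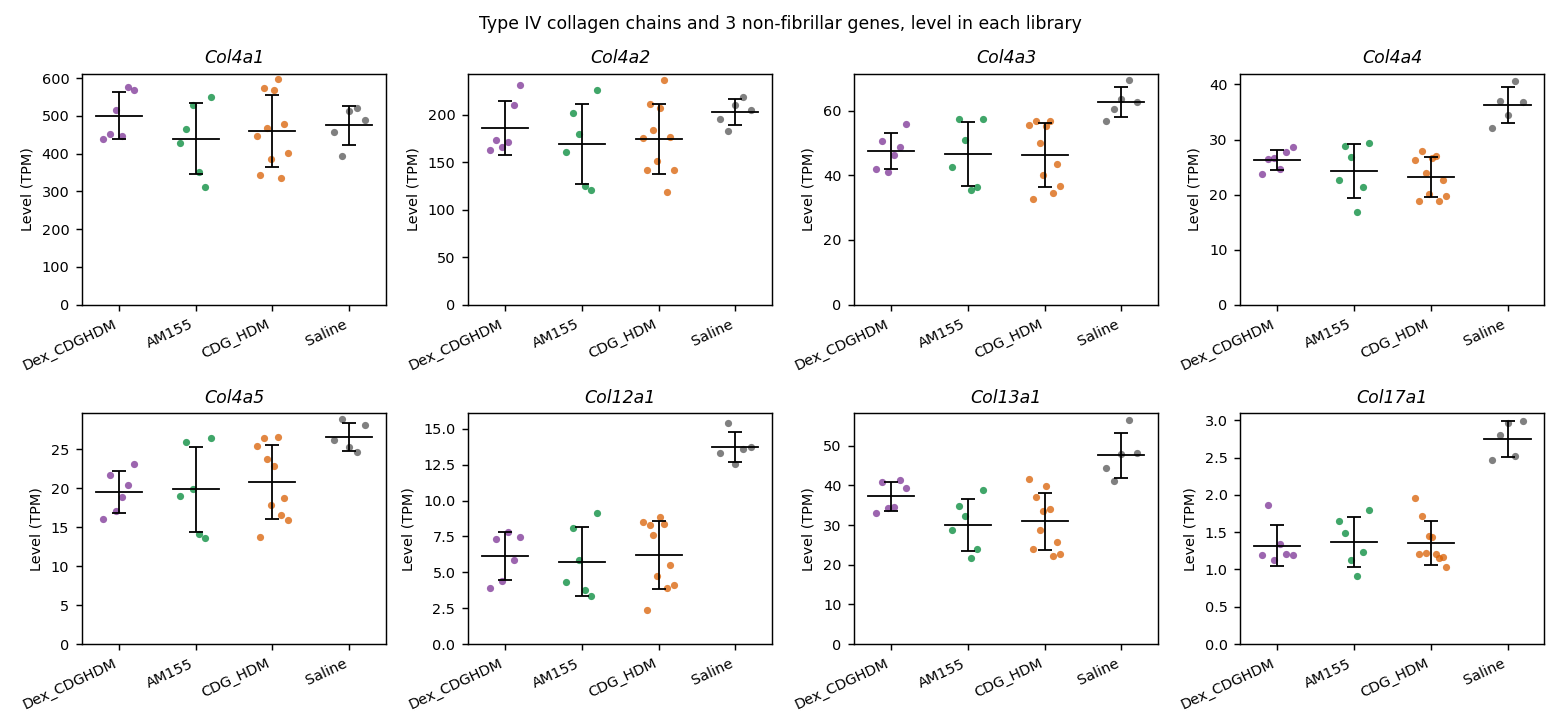
Level in TPM (vertical axis, linear, from 0) of 5 type IV collagen chains and of Col12a1, Col13a1 and Col17a1 in each library of the 4 groups; points are libraries (mice), the horizontal bar is the mean and the error bar the SD. Col4a4, Col12a1 and Col17a1 had every CDG_HDM library below every Saline library, while Col4a1 overlapped fully.

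Among the 19 other collagens that passed the filter, 7 fell in CDG_HDM and none rose, where 22.8% of all genes fell and 9.35% rose. These 7 belong to structurally different kinds. Col12a1 binds to the surface of fibrils, Col13a1, Col17a1 and Col23a1 span the cell membrane, Col17a1 as a component of hemidesmosomes, Col7a1 forms the anchoring fibrils under epithelia, and Col8a1 and Col8a2 form a network known from vessel walls and the cornea. Col12a1 (chromosome 9, 79598991 to 79718831, reverse strand) changed most, with 2.35, 6.53 and 8.88 TPM in CDG_HDM as lowest, median and highest, against 12.6, 13.3, 13.6, 13.7 and 15.4 TPM in Saline. No CDG_HDM library reached the lowest Saline library (-1.11 ± 0.219, adjusted p = 0.000216). Col17a1 (chromosome 19, 47646344 to 47692094, reverse strand) had 1.03, 1.21 and 1.96 TPM in CDG_HDM, against 2.47, 2.52, 2.80, 2.96 and 2.98 TPM in Saline, again without overlap (-0.68 ± 0.0925, adjusted p = 1.4e-06). Col13a1 (chromosome 10, 61838236 to 61979108, reverse strand) had 22.2, 31.1 and 41.5 TPM in CDG_HDM, against 41.1, 44.3, 47.8, 48.0 and 56.4 TPM in Saline, where the highest CDG_HDM library was just above the lowest Saline library (-0.63 ± 0.138, adjusted p = 0.000662).

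The remaining falls were smaller. Col23a1 averaged 18.3 ± 3.75 TPM in CDG_HDM and 26.2 ± 3.81 in Saline (SD, log2 change -0.51, limma adjusted p = 0.00325). Col8a2 averaged 4.22 ± 0.585 TPM in CDG_HDM and 5.93 ± 0.706 in Saline (-0.41, adjusted p = 0.00522), and Col8a1 3.19 ± 0.670 TPM in CDG_HDM and 4.24 ± 0.608 in Saline (-0.33, adjusted p = 0.0263). Col7a1 averaged 2.77 ± 0.454 TPM in CDG_HDM and 3.42 ± 0.409 in Saline (-0.23, adjusted p = 0.0359). Col7a1 and Col8a1 did not pass under common-sum scaling, Col7a1 not under quantile normalization, and each lost its call without 1 of several libraries, Col8a1 without Saline 2, 5, 8 or 10 (adjusted p up to 0.0783) and Col7a1 without these or CDG_HDM 4, 8, 12 or 14 (up to 0.124). The other falls, Col4a3 and Col4a4 included, passed under all 3 scalings and without any 1 library. With the replicate number as a block, Col4a3 (limma adjusted p = 0.0520), Col8a2 (0.120), Col8a1 (0.196) and Col7a1 (0.324) did not pass.

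No chain of type VI collagen, a beaded microfibril of many tissues, passed the test. Col6a1 had 76.7, 106 and 149 TPM in CDG_HDM as lowest, median and highest, against 89.5, 92.5, 92.5, 94.5 and 98.9 TPM in Saline, so that the CDG_HDM range enclosed the Saline range (0.15 ± 0.131, adjusted p = 0.413). Under common-sum scaling it passed as higher (0.31, adjusted p = 0.0337). Col6a2 (-0.15, adjusted p = 0.467) and Col6a3 (0.08, adjusted p = 0.709), its partners, and Col6a4, Col6a5 and Col6a6, alternatives to Col6a3 in the trimer, did not pass. The sign of Col6a2 was positive under common-sum scaling (0.01). The wide spread of CDG_HDM libraries was shared by the abundant chains of each class. The summed TPM of fibrillar, basement membrane and other collagens was highest in CDG_HDM 10 for each class (1280, 999 and 521 TPM), and lowest in CDG_HDM 4 for fibrillar and other (636 and 278 TPM) and in CDG_HDM 12 for basement membrane (561 TPM).

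Over the 35 genes, 4 rose, Col24a1 with the limit given above among them, 9 fell and 22 did not pass. The median log2 change was -0.16, beside -0.10 over all 17437 genes tested, and 14 of the 35 lay above the median of all genes. By class the median was 0.17 for the 9 fibrillar, -0.24 for the 7 basement membrane and -0.16 for the 19 other genes. The fibrillar median includes Col24a1, so it too is no support for a direction of that class. Of the 35, 3 were lower without overlap between the groups (Col4a4, Col12a1 and Col17a1) and none was higher without overlap, where 8.92% of all genes were lower and 5.06% higher in this way. As a share of the group the 9 falls and the 4 rises were near those of all genes, 22.8% and 9.35%. Without Saline 4, 2 rose and 11 fell, and without Saline 4 and AM155 6 together, 3 rose and 11 fell. Of the genes called in the whole table, 29.1% were higher, and 51%, 45.7% and 62.8% after median-of-ratios, quantile and common-sum scaling; the collagen calls were 4 higher and 9 lower, 4 and 8, and 5 and 7 under these.

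**Figure D3:**
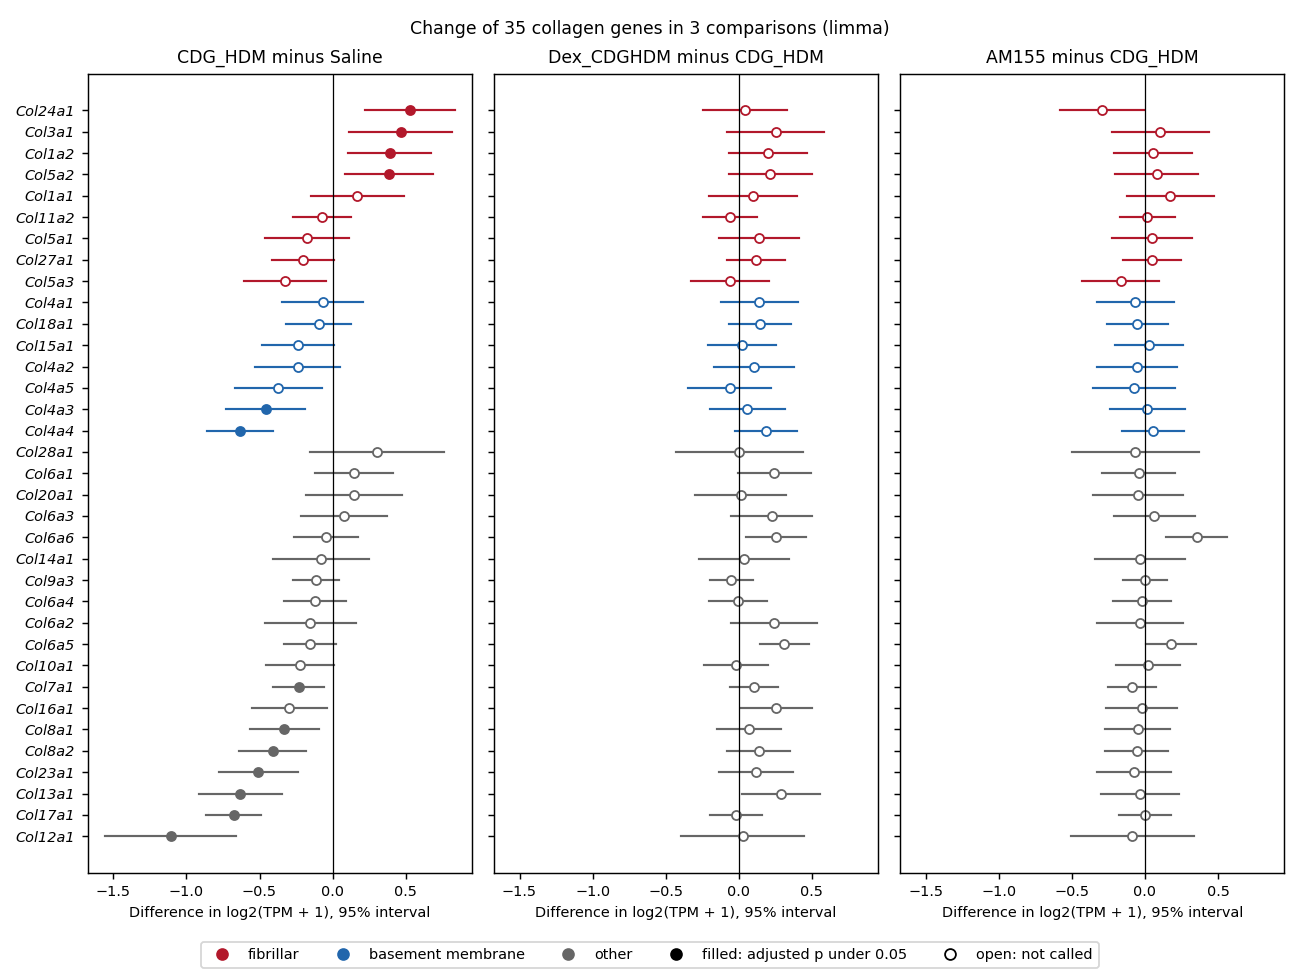
Difference in log2(TPM + 1) (horizontal axis) for the 35 collagen genes that passed the filter (vertical axis, ordered within class by the change with sensitization) in 3 panels, for CDG_HDM against Saline, Dex_CDGHDM against CDG_HDM, and AM155 against CDG_HDM; points are limma estimates, lines 95% intervals, filled points adjusted p under 0.05. In the first panel the called genes are 4 fibrillar genes right of 0 and 9 basement membrane or other genes left of it, and in the other panels no gene was called.

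Some of the genes that changed are neighbours. Col4a3 and Col4a4 start 71 bases apart and are read in opposite directions, and both fell; Col4a1 and Col4a2 are also read away from each other, their annotated spans overlapping by 22 bases, and neither passed; how reads over that overlap were assigned is not given in the sources used here. Sequence is shown for the stretch between Col4a3 and Col4a4, since it is the shared start region of 2 genes that fell, for the stretch before Col1a2 and Col3a1, since both rose, and for the stretch before Col17a1, which had the smallest adjusted p of the collagens. It comes from RefSeq on GRCm38.p6, a C57BL/6J reference and not the BALB/c of these mice, 5′ to 3′ on the strand of the gene (of Col4a4 for the shared stretch), kept to the bases that no annotated exon covers. Capitals mark matches to the GC box of Sp family factors in the Col1a2 stretch and to the TATA box in the Col3a1 and Col17a1 stretches. The Col1a2 stretch lies inside the annotated span of that gene, before its RefSeq start.
Col4a3-Col4a4 gap (chr1:82586850-82586920, reverse strand): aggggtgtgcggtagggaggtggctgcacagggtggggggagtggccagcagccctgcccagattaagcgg
Col1a2 upstream (chr6:4505370-4505492, forward strand): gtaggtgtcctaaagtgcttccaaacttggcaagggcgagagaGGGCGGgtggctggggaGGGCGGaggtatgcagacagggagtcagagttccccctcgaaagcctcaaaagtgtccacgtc
Col3a1 upstream (chr1:45311288-45311537, forward strand): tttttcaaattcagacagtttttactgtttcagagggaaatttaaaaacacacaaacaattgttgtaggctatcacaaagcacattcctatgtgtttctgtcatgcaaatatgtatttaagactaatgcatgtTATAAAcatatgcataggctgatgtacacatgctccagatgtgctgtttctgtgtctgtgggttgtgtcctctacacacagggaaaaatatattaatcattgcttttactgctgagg
Col17a1 upstream (chr19:47692095-47692292, reverse strand): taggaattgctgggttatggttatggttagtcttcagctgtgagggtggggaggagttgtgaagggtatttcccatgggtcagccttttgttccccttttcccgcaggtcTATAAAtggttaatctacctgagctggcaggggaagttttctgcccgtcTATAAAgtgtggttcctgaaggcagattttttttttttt

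Matches were sought on both strands for 3 short motifs, and none overlapped another in these stretches. The GC box was taken as GGGCGG, a motif bound by Sp factors. The TATA box, which positions the start of transcription at some promoters, was taken as TATAAA. The CCAAT box was taken as its 5 letters. The 71 bases between Col4a3 and Col4a4 held none of the 3 motifs, at 69% G and C; of 32851 RefSeq promoter windows cut to 71 bases, 13.3% held a CCAAT box, 20.7% a GC box and 4.41% a TATA box. The Col1a2 stretch of 123 bases held the GC box at 2 places, as 26.7% of windows of that length held it at least once. Col3a1 had 1 TATA box in 250 bases (12.4% of windows) and Col17a1 had 2 in 198 bases (9.9% of windows). Of the 29 of 35 collagen genes in the promoter table, 17 had a GC box within 250 bases, 10 a CCAAT box and 5 a TATA box, beside 32.7%, 33.8% and 12.4% of all windows. By class, the TATA box was found in 2 of 7 fibrillar, 0 of 6 basement membrane and 3 of 16 other genes. A match describes the letters only, and its use in lung was not tested.

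The class sums set the classes side by side. Most of the fibrillar sum came from Col1a2 and Col3a1, with means of 430 and 308 TPM in CDG_HDM and 322 and 215 in Saline. It therefore describes mainly these chains, and 5 of the 9 fibrillar genes tested had a positive log2 change in CDG_HDM against Saline. The summed TPM of the fibrillar genes averaged 991 ± 125 in Dex_CDGHDM, 923 ± 226 in AM155, 873 ± 208 in CDG_HDM and 659 ± 39.5 in Saline (SD). As a share of the linear table this was 0.138% ± 0.0212, 0.134% ± 0.0312, 0.117% ± 0.0258 and 0.0790% ± 0.00563 in that order of groups. For basement membrane genes the shares were 0.115% ± 0.0116 in Dex_CDGHDM, 0.108% ± 0.0185 in AM155, 0.103% ± 0.0173 in CDG_HDM and 0.103% ± 0.00616 in Saline, and for other collagens 0.0610% ± 0.00739, 0.0551% ± 0.00842, 0.0516% ± 0.00920 and 0.05004% ± 0.00138 in the same order. The TPM sums themselves had another order in these 2 classes, with basement membrane genes at 832 ± 98.3 TPM in Dex_CDGHDM, 748 ± 158 in AM155, 774 ± 154 in CDG_HDM and 857 ± 70.0 in Saline. The other collagens summed to 441 ± 47.3 TPM in Dex_CDGHDM, 380.3 ± 73.9 in AM155, 386 ± 79.8 in CDG_HDM and 417 ± 11.1 in Saline. No test was made of these sums.

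**Figure D4:**
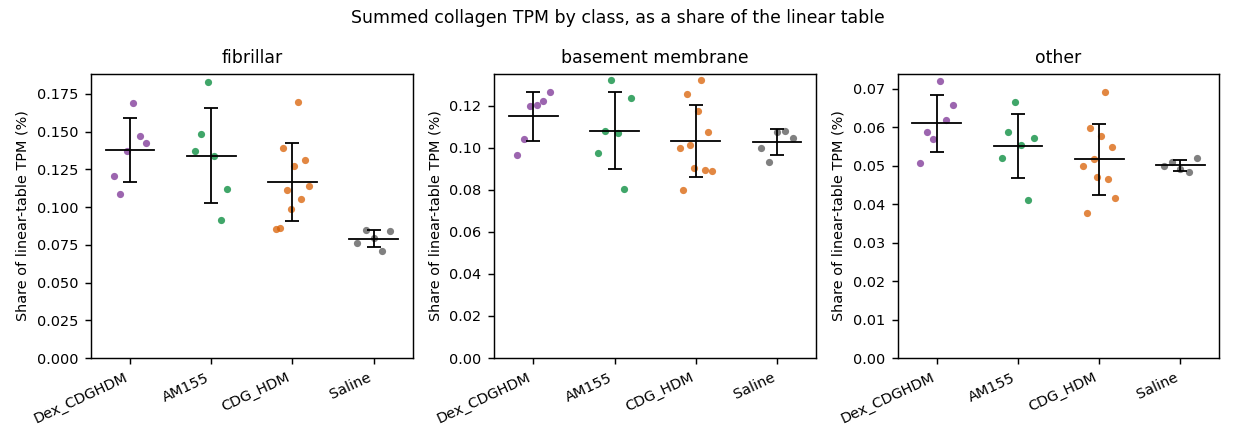
Summed TPM of the fibrillar, basement membrane and other collagen genes as a percent of the TPM of the linear table (vertical axis, linear, from 0) in each library of the 4 groups; points are libraries (mice), the horizontal bar is the mean and the error bar the SD. The Saline mean of the fibrillar class is 0.0790%, against 0.117% to 0.138% in the other groups, while the group means of the basement membrane class lie between 0.103% and 0.115%.

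A ratio of 2 chains within a library does not depend on the scaling of that library, apart from quantile normalization. In CDG_HDM lungs Col4a2 and Col4a3 were both lower relative to Col4a1. Col4a3 per Col4a1 was 0.101 ± 0.00978 in CDG_HDM and 0.133 ± 0.0122 in Saline (SD, n = 10 and 5; difference in mean log2 ratio -0.40, exact permutation test, two-sided, p = 0.000999, adjusted p = 0.00749 over 15 tests). The CDG_HDM ratios ran from 0.0909 to 0.124 and the Saline ratios from 0.124 to 0.153, meeting at a single CDG_HDM library. Col4a2 per Col4a1 was 0.380 ± 0.0207 in CDG_HDM and 0.428 ± 0.0216 in Saline (-0.17, exact permutation test, p = 0.000999, adjusted p = 0.00749), with ranges of 0.353 to 0.413 in CDG_HDM and 0.408 to 0.464 in Saline; under quantile normalization it missed the threshold (-0.16, adjusted p = 0.0543 by the exact permutation test). Without Saline 4 these differences were -0.34 and -0.14 (adjusted p = 0.0225 and 0.030 by the same exact test).

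Fibrillar ratios to Col1a1 did not pass. Col3a1 per Col1a1 was 5.59 ± 0.718 in CDG_HDM and 4.61 ± 0.860 in Saline (log2 difference 0.29, exact permutation adjusted p = 0.0809), and Col1a2 per Col1a1 was 7.91 ± 0.481 in CDG_HDM and 6.99 ± 1.65 in Saline (0.22, adjusted p = 0.159). Col5a1 per Col1a1 was 0.394 ± 0.0361 in CDG_HDM and 0.519 ± 0.125 in Saline (-0.36, adjusted p = 0.0809). Saline 4 moved all 3: without it the differences were 0.16 (exact permutation adjusted p = 0.247), 0.04 (adjusted p = 0.545) and -0.55 (adjusted p = 0.015, past the threshold). None of the 5 ratios passed for Dex_CDGHDM against CDG_HDM, where the largest difference was 0.15 for Col3a1 per Col1a1 (exact permutation adjusted p = 0.159). The ratio nearest to the threshold there was Col1a2 per Col1a1 (0.10, exact permutation adjusted p = 0.105). For AM155 against CDG_HDM the nearest was Col1a2 per Col1a1, 7.26 ± 0.299 in AM155 and 7.91 ± 0.481 in CDG_HDM (-0.12, exact permutation adjusted p = 0.0512).

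**Figure D5:**
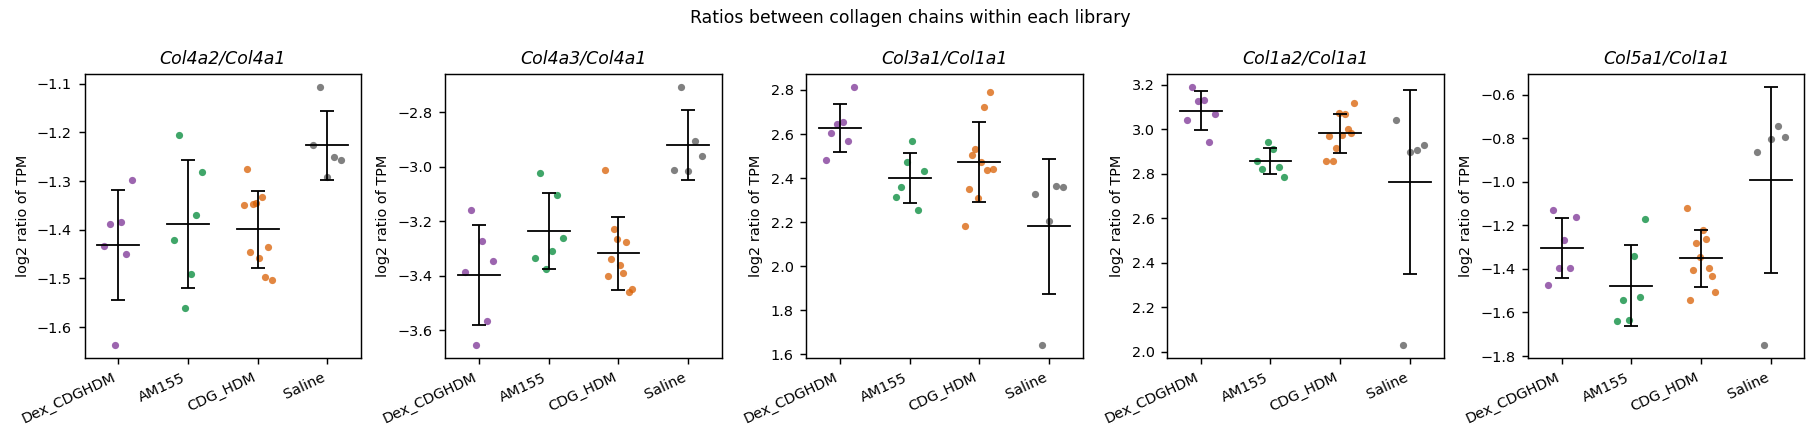
The log2 ratio of TPM between 2 collagen chains (vertical axis, log2 scale, not from 0) in each library of the 4 groups, for 5 pairs of chains; points are libraries (mice), the horizontal bar is the mean and the error bar the SD. Col4a2 and Col4a3 per Col4a1 are lower in CDG_HDM than in Saline, and in the 3 ratios to Col1a1 the Saline 4 library stands far below the other Saline libraries.

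Genes that make, process and anchor collagen were read from lists chosen by function. Of 21 genes of chain modification, folding and export, 1 rose and 4 fell with sensitization. The galactosyltransferase gene Colgalt1 rose (log2 change 0.21, limma adjusted p = 0.0412), and Colgalt2 (-0.98), the lysyl hydroxylase gene Plod2 (-0.62) and P3h4 (-0.52), which takes part in lysine modification, fell with P3h2. Of 7 genes that trim the propeptides of fibrillar chains, 4 fell and none rose, among them Pcolce2 (-0.82) and Pcolce (-0.46), enhancers of that cleavage, and the protease gene Adamts14 (-0.67). Of 6 cross-linking enzymes, 2 fell and none rose: Pxdn (-0.85), the peroxidase that links type IV networks, and Loxl4 (-0.38), a lysyl oxidase. These counts stand beside 9.35% higher and 22.8% lower among all genes.

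Of 10 genes of collagen degradation and uptake, 4 rose and 2 fell, where 9.35% of all genes rose and 22.8% fell. Mmp12, the macrophage elastase, averaged 38.4 ± 19.8 TPM in CDG_HDM and 5.85 ± 0.823 in Saline (SD, log2 change 2.37, limma adjusted p = 8.1e-07). Ctsk, a cysteine protease that cleaves triple-helical collagen, averaged 56.8 ± 15.9 TPM in CDG_HDM and 20.5 ± 1.903 in Saline (1.38, adjusted p = 1.0e-07). Mmp14 (0.68), a membrane-bound collagenase, and the gelatinase gene Mmp2 (0.45) also rose, whereas the gelatinase gene Mmp9 (-0.86) and Mrc2 (-0.45), a receptor that takes up collagen fragments, fell. Of 4 inhibitor genes, Timp1 rose (0.30) and Timp3 fell (-0.74). The summed TPM of macrophage markers C1qa, C1qb, C1qc, Ms4a7 and Csf1r was 554 to 1352 in CDG_HDM and 163 to 184 in Saline, all 5 markers rose, and their part in the Mmp12 and Ctsk values was not tested.

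The partners of collagen in the matrix are read against the same shares of all genes, 22.8% lower and 9.35% higher. Of 14 laminin, nidogen and proteoglycan genes of basement membranes, 11 fell and none rose, led by Lamc3 (-0.92), Nid2 (-0.62) and Lama3 (-0.60, adjusted p = 0.000482 by limma), a laminin chain of epithelial basement membranes. Of 8 proteoglycans that coat fibrils, 4 fell and none rose, Ogn most (-1.16), then Prelp (-0.62) and Podn (-0.46). Of 9 collagen receptor genes, Lair1, an inhibitory receptor of leukocytes, rose (0.71), and 4 integrin genes fell, Itga2 (-0.59), Itga1 (-0.51) and Itga11 (-0.34) among them. Of 14 genes of the TGF-beta axis, a main inducer of fibrillar collagen in fibroblasts, 3 rose and 4 fell. The rises were Ltbp2 (0.75), the receptor gene Tgfbr1 (0.60) and Tgfb1 itself (0.24), and the falls included the matrix binder Ltbp4 (-1.07), the co-receptor gene Tgfbr3 (-1.03) and the inhibitor gene Smad7 (-0.59).

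Markers of cells that make or surround collagen were counted in the same way, beside 22.8% lower and 9.35% higher among all genes. Of 9 fibroblast markers, 5 fell and 2 rose, Dpt and Thy1, the second of which T cells also express, and the summed level was 1645 to 2862 TPM in CDG_HDM and 2925 to 3973 in Saline. All 7 smooth muscle and all 6 pericyte markers fell, as did 6 of 7 endothelial, 4 of 6 alveolar type 1 and 3 of 4 mesothelial markers; the endothelial sum was 552 to 1092 TPM in CDG_HDM and 1377 to 1664 in Saline, and the alveolar type 1 sum 1644 to 2729 TPM in CDG_HDM and 2690 to 3469 in Saline. The smooth muscle sum was 167 to 454 TPM in CDG_HDM and 638 to 857 in Saline, the pericyte sum 165 to 253 TPM in CDG_HDM and 288 to 330.2 in Saline, and the mesothelial sum 57.0 to 94.0 TPM in CDG_HDM and 112 to 145 in Saline. All 5 adipocyte and all 5 cardiac muscle markers fell, with sums of 20.1 to 105 and 38.7 to 130.03 TPM in CDG_HDM, against 208 to 351 and 177 to 487 TPM in Saline. Cartilage markers, of which 7 of 8 were in the table, summed to 11.9 to 20.5 TPM in CDG_HDM and 14.3 to 25.7 in Saline, and 1 of 6 tested fell. All 5 plasma cell markers rose, with a sum of 2017 to 3928 TPM in CDG_HDM and 204 to 212 in Saline. No marker of these lists was at 0 in all libraries. The part of any of these cells in the collagen changes was not tested.

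Dexamethasone given during sensitization did not change any collagen gene detectably (Dex_CDGHDM against CDG_HDM). None of the 35 passed by limma, and 4 had an unadjusted p under 0.05; over all genes 1 of 17437 passed, 0.00573%. The log2 changes ran from -0.06 to 0.31, 28 of 35 were positive, and their median was 0.11, beside -0.01 for all genes. The 95% intervals of the 35 genes reached from -0.43 to 0.59 in all. Col3a1 averaged 357 ± 59.1 TPM in Dex_CDGHDM and 308 ± 92.9 in CDG_HDM (SD; 0.25, 95% interval -0.08 to 0.59, adjusted p = 1.00). Col1a1 averaged 57.7 ± 8.35 TPM in Dex_CDGHDM and 54.3 ± 11.2 in CDG_HDM (0.10, interval -0.20 to 0.40), and Col4a1 500.0 ± 62.5 TPM in Dex_CDGHDM and 459.9 ± 95.7 in CDG_HDM (0.14, interval -0.12 to 0.40).

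The smallest p of each class in that comparison belonged to Col3a1, Col4a4 and Col6a5. Col4a4 had 23.8, 26.5 and 28.7 TPM in Dex_CDGHDM as lowest, median and highest, and 18.7, 23.3 and 27.9 TPM in CDG_HDM, overlapping ranges (0.19, interval -0.02 to 0.40). Col6a5, an alternative type VI chain with few TPM, had 1.07, 1.42 and 1.72 in Dex_CDGHDM, and 0.759, 0.885 and 1.52 in CDG_HDM (0.31 ± 0.0831, limma adjusted p = 0.385). All 6 Dex_CDGHDM libraries lay above the CDG_HDM mean of Col6a5, with overlap of the groups. The enzyme, receptor, partner and TGF-beta lists had no call in this comparison either.

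AM155 against CDG_HDM gave no call among the 35 collagens as well, with 3 at an unadjusted p under 0.05, where 18 of 17437 genes passed in limma (0.103%). Log2 changes ran from -0.29 to 0.35, with 16 of 35 positive and a median of -0.02, beside -0.08 for all genes. The 95% intervals reached from -0.58 to 0.56 in all. Col1a1 averaged 62.0 ± 15.5 TPM in AM155 and 54.3 ± 11.2 in CDG_HDM (SD; 0.17, 95% interval -0.13 to 0.47), Col3a1 328 ± 81.9 TPM in AM155 and 308 ± 92.9 in CDG_HDM (0.10, interval -0.23 to 0.44), and Col4a1 439.8 ± 94.5 TPM in AM155 and 459.9 ± 95.7 in CDG_HDM (-0.07, interval -0.33 to 0.20), a sign that turned positive under the 3 other scalings.

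The gene nearest to a call was Col6a6, another alternative chain of type VI collagen. It had 1.40, 2.25 and 2.97 TPM in AM155 as lowest, median and highest, and 1.03, 1.45 and 2.70 TPM in CDG_HDM, the last value from CDG_HDM 4 and the next highest at 1.63 TPM (0.35 ± 0.102, limma adjusted p = 0.404). Without CDG_HDM 4 it passed (0.42, adjusted p = 0.0383). Col24a1 had 0.681, 0.915 and 1.44 TPM in AM155, and 0.647, 1.29 and 3.30 TPM in CDG_HDM (-0.29 ± 0.141, adjusted p = 0.681), and Col4a4, with the smallest p of the basement membrane class, had a log2 change of 0.06 (adjusted p = 0.839). The lists of enzymes, receptors and partners held no called gene in this comparison.

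Dex_CDGHDM against AM155 likewise gave no call among the collagens, with 5 at an unadjusted p under 0.05, where 14 genes of the table passed in limma (0.0803%). The largest difference was in Col24a1, at 1.46 ± 0.183 TPM in Dex_CDGHDM and 0.958 ± 0.294 in AM155 (SD; log2 change 0.34, adjusted p = 0.663). Col13a1 (0.32, adjusted p = 0.636) had the smallest p, and Col18a1 (0.20, adjusted p = 0.768) that of the basement membrane class. Col1a1 (-0.08), Col3a1 (0.15) and Col4a1 (0.20) did not pass.

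Both treated groups were also set against Saline, with the same 5 Saline libraries that served for CDG_HDM, so the 3 comparisons are not independent and are given side by side only. In Dex_CDGHDM 5 collagens were higher than in Saline and 6 lower by limma, where 7.59% of all genes were higher and 17.5% lower. In AM155 4 were higher and 11 lower, where 7.82% were higher and 32.7% lower. Col3a1 had a log2 change of 0.72 in Dex_CDGHDM, 0.57 in AM155 and 0.46 in CDG_HDM, each against Saline, and Col1a2 of 0.59, 0.45 and 0.39 in the same order. Col5a2 had 0.60, 0.47 and 0.39, and Col24a1 0.57 in Dex_CDGHDM and 0.53 in CDG_HDM, with no call in AM155. In Dex_CDGHDM the lowest values of Col1a2 (413 TPM), Col3a1 (275), Col5a2 (38.9) and Col24a1 (1.19) were above the highest Saline values (349.8, 236, 37.0 and 0.933 TPM), while in AM155 the ranges overlapped. Col6a1 also lay wholly above Saline in Dex_CDGHDM (lowest value 103 TPM, highest Saline value 98.9 TPM). Col4a3, Col4a4, Col4a5, Col12a1 and Col17a1 lay wholly below Saline there, with highest values of 56.0, 28.7, 23.1, 7.81 and 1.86 TPM. Their lowest Saline values were 56.8, 32.0, 24.6, 12.6 and 2.47 TPM. The share of all genes without overlap was not counted for Dex_CDGHDM, so these ranges only describe the genes. Col24a1 came past the filter only through groups in which it was higher, a limit that holds here too. Col6a1 passed in the Dex_CDGHDM comparison (0.39, adjusted p = 0.0455) and Col6a6 in that of AM155 (0.31, adjusted p = 0.0394), but between Dex_CDGHDM and AM155 neither difference passed (0.29 and -0.10, adjusted p = 0.675 and 0.874).

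Among the falls, Col12a1 had a log2 change of -1.08 in Dex_CDGHDM, -1.20 in AM155 and -1.11 in CDG_HDM against Saline, and Col17a1 of -0.70, -0.67 and -0.68. The highest values of Col12a1 were 7.81 TPM in Dex_CDGHDM, 9.16 in AM155 and 8.88 in CDG_HDM, against a lowest value of 12.6 TPM in Saline. Col4a4 had log2 changes of -0.44, -0.58 and -0.63, Col4a3 -0.40, -0.44 and -0.46, and Col4a5 -0.43, -0.45 and -0.37, the last without a call. Under median-of-ratios, quantile and common-sum scaling, Col4a3 and Col4a5 did not pass against Saline in Dex_CDGHDM or AM155 (limma adjusted p of 0.0513 to 0.333). Col23a1 had log2 changes of -0.39, -0.58 and -0.51, each a call. That of Dex_CDGHDM was lost under common-sum scaling (limma adjusted p = 0.169). Col13a1 passed against Saline in AM155 (-0.66) and in CDG_HDM (-0.63), with -0.34 and adjusted p = 0.1003 in Dex_CDGHDM. Col5a3 passed in AM155 (-0.49, adjusted p = 0.0116), with -0.39 and adjusted p = 0.0627 in Dex_CDGHDM and -0.33 in CDG_HDM, and Col7a1 (-0.32), Col8a1 (-0.38) and Col8a2 (-0.47) were the further falls of AM155. Under median-of-ratios and common-sum scaling, Col5a3 (limma adjusted p = 0.0523 and 0.127) and Col8a1 (0.0511 and 0.222) did not pass in AM155. Col7a1 did not pass there under common-sum scaling (0.266). Col1a1 (0.27 in Dex_CDGHDM, 0.34 in AM155) and Col4a1 (0.07 and -0.13) did not pass against Saline, but without Saline 4 Col1a1 did, at 0.43 in Dex_CDGHDM (adjusted p = 0.0457) and 0.51 in AM155 (adjusted p = 0.0136). In Dex_CDGHDM against Saline the calls on Col6a1, Col4a5 and Col23a1 were each lost without any of 9 of the 11 libraries, and that on Col4a3 without any of 7. Without Dex_CDGHDM 4, Col23a1 and Col4a3 did not pass in that comparison (limma adjusted p = 0.134 and 0.0716). Without AM155 6, Col4a3, Col4a5 and Col8a1 did not pass in AM155 against Saline (limma adjusted p = 0.0579, 0.0945 and 0.0652). Without AM155 5, no collagen was higher in AM155 than in Saline, and without the 3 libraries of large circular sums 1 was higher and 7 lower.

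Circular RNA, a closed loop made by back-splicing, was listed for 12 collagen symbols of the 4416 in the circular table, and Col1a1 was not among them. Values were mostly 0, in tables without junction positions, so they are described without a test. Col4a1 was above 0 in 19 of 27 libraries, 3 of 6 Dex_CDGHDM, 6 of 6 AM155, 8 of 10 CDG_HDM and 2 of 5 Saline, with maxima of 164.7, 1217, 117 and 116 TPM in that order of groups. Col13a1 was above 0 in 14 libraries, among them all 5 Saline (2.50 to 11.8 TPM). Col3a1 was listed at 0 in the 5 Saline libraries and above 0 in 2 Dex_CDGHDM, 5 AM155 and 4 CDG_HDM libraries, up to 654 TPM in CDG_HDM 10. Col4a4 was above 0 in 12 libraries. Col1a2 was above 0 in 7 libraries, 3 Dex_CDGHDM and 4 AM155, at no more than 7.94 TPM, and the other 7 symbols were above 0 in 1 to 4 libraries each.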

How the data were processed

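Ribosome-depleted, stranded, paired-end total RNA sequencing of the left lung lobe was made from 27 mice, with RNA integrity numbers of 6.9 to 8.6 per the labels; the labels give read lengths of both 150 and 100 bases. The authors deposited TPM per gene symbol, in a linear and a circular table. CASAVA 1.9 and the mouse build mm10 appear in the submitters' processing notes; for the aligner, quantifier, annotation and use of strand, nothing was given in the sources used here. TPM holds no counts, so depth is unknown and no counting interval is given.

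The 17437 genes that reached 1 TPM in 5 or more libraries were tested with limma 3.58.1 in R 4.3.3 on log2(TPM + 1), with all 27 libraries in 1 fit, a mean-variance trend and 6 contrasts. Benjamini-Hochberg adjustment was made over all 17437 genes within each contrast, and not across the contrasts (threshold 0.05). Tables were made with Python 3.11.15, pandas 2.3.3 and numpy 2.4.6. Chain ratios were compared with two-sided exact permutation tests, adjusted over 15. The fit was tested on simulated data. The labels name each library as 1 sample, taken here as 1 mouse, and p-values measure the spread between these samples.

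Named were Col1a1, Col3a1 and Col4a1 in every comparison, the partner chains of types I, IV, V and VI with sensitization, up to 6 called genes per class and direction, the gene with the smallest p of a class with none, up to 3 called genes per list and direction, and the genes nearest to the filter; the remaining names were added after their values were seen. The members, lists and tests were chosen with earlier results of these data known. Alternatives were median-of-ratios, quantile and common-sum scaling, a pseudocount of 0.1, no filter, the replicate number as a block, the 2 groups alone, leaving out Saline 4 and AM155 6, and leaving out each library; leaving out AM155 5, AM155 6 and Dex_CDGHDM 4, with the largest circular sums, was chosen after seeing the data. Replicate numbers were not taken as pairs: over 20 pairs of libraries with the same number, the correlation of their deviations from the group means was -0.239 to 0.275. Gene positions are those of GENCODE on GRCm38, and promoter sequences those of RefSeq on GRCm38.p6.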

Additional observations from a re-analysis of the deposited data

Results flagged for a closer look

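Each group of each collagen gene, class sum and chain ratio was searched for a single library whose gap to its nearest neighbour was large against the range of the group. Of 176 groups, 12 held one, and chance alone gives about 1 in 20.

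Saline 4 accounted for 6 of the 12. It had 74.5 TPM of Col1a1, where the other 4 Saline libraries had 39.2 to 45.9 TPM. Its log2 ratio to Col1a1 was 1.64 for Col3a1, 2.03 for Col1a2 and -1.75 for Col5a1, where the other Saline libraries had 2.21 to 2.36, 2.90 to 3.04 and -0.86 to -0.75 in the same order. It was low in Col23a1, the transmembrane chain (19.6 TPM, the others 26.8 to 29.4), and in Col8a1 (3.18 TPM, the others 4.38 to 4.73).

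In the other Saline libraries, Saline 8 had 5.05 TPM of Col27a1 (the others 5.85 to 6.07), and the sum of the other collagens was 437 TPM in Saline 10 (the others 411 to 416). In Dex_CDGHDM, replicate 2 had 1.86 TPM of Col17a1, where the others had 1.13 to 1.33 TPM, below the lowest Saline value of 2.47 TPM all the same. Among CDG_HDM libraries, CDG_HDM 4 had 2.70 TPM of Col6a6 (the others 1.03 to 1.63), CDG_HDM 13 had 1.52 TPM of Col6a5 (the others 0.759 to 1.07), and the log2 ratio of Col4a3 to Col4a1 in CDG_HDM 3 was -3.01 (the others -3.46 to -3.23).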

How the results depend on the processing

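For the collagens named by the rule in each comparison, 537 values under another setting kept their direction and side of the threshold, 58 no longer passed, 8 passed anew and 9 changed sign; with 1 library left out these counts were 795, 88, 8 and 2. Further collagens outside these counts passed anew under some settings, among them Col6a3, Col18a1, Col6a5 and Col6a6 in Dex_CDGHDM against Saline under common-sum scaling. All these sign changes were of genes that did not pass. Col4a1 was 0.049 and 0.095 in CDG_HDM against Saline, 0.02 and 0.053 in AM155 against CDG_HDM, and 0.069 and 0.148 in AM155 against Saline under median-of-ratios and common-sum scaling, and 0.038 and 0.029 in the AM155 comparisons under quantile normalization. Col6a2 was 0.008 in CDG_HDM against Saline under common-sum scaling. With 1 library left out Col4a1 ran from -0.135 to 0.027 in AM155 against CDG_HDM, and Col1a1 from -0.168 to 0.001 in Dex_CDGHDM against AM155.

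Counts of collagens against Saline moved with scaling, filter, block and single libraries. In Dex_CDGHDM 10 were higher and 3 lower under common-sum scaling, and 3 lower with no filter. In AM155 7 were higher and 6 lower under common-sum scaling, 7 were lower under median-of-ratios, and 1 was higher and 7 lower without the 3 libraries of large circular sums. In CDG_HDM 2 were higher with no filter. Leaving out each library gave 1 to 4 higher and 7 to 11 lower in CDG_HDM, with fewer than 3 higher without Saline 2, 4, 5, 8 or 10 or CDG_HDM 5, 7, 9, 10 or 13; 4 to 5 higher and 3 to 7 lower in Dex_CDGHDM, with 3 lower without Saline 5 or 10 or Dex_CDGHDM 1, 3 or 4; and 0 to 5 higher and 8 to 13 lower in AM155, with 0 higher without AM155 5 and 2 without Saline 2 or 8. AM155 against CDG_HDM had 0 to 1 higher, the 1 being Col6a6 without CDG_HDM 4.

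For the chain ratios, the exact permutation test of Col1a2 per Col1a1 in AM155 against CDG_HDM passed without Saline 4 and AM155 6 (-0.134) and without the 3 libraries (-0.158), and ran from -0.14 to -0.108 with 1 library left out, past the threshold without AM155 5, CDG_HDM 3 or CDG_HDM 5. Col4a2 per Col4a1 missed the threshold in CDG_HDM against Saline under quantile normalization (-0.16). With 1 library left out it ran from -0.06 to 0.008 in Dex_CDGHDM and from -0.025 to 0.046 in AM155, each against CDG_HDM. Col5a1 per Col1a1 passed in CDG_HDM against Saline without Saline 4, with or without AM155 6 (-0.55), and ran to -0.299; Col3a1 per Col1a1 ran from 0.159 to 0.339 in that comparison and passed without CDG_HDM 3. Col1a2 per Col1a1 ran from 0.08 to 0.13 in Dex_CDGHDM against CDG_HDM and passed without Dex_CDGHDM 5. The cause was not tested in these cases.

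The replicate numbers do not pair the samples. With the number as a block, 1 collagen was higher and 5 lower in CDG_HDM against Saline, 4 higher and 3 lower in Dex_CDGHDM, and 4 higher and 12 lower in AM155, in a fit with 10 residual degrees of freedom instead of 23. The calls of CDG_HDM against Saline lost in this fit were Col1a2, Col3a1, Col5a2, Col4a3, Col7a1, Col8a1 and Col8a2.

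TPM without counts gives no depth, so genes near 1 TPM, such as Col24a1, Col6a5, Col6a6 and Col17a1, cannot be given a counting error. The collagen calls come from whole lobes with 5 Saline libraries, and RNA level says nothing of deposited protein. No group is labelled as given empty nanoparticles or the vehicle of a treatment alone.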
